A study of Rattus norvegicus with 15 samples.

Results

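MERGE.11573 is a locus that the study's own transcript assembly defined in the abdominal aorta of rats, and its members are all isoforms whose identifier starts with that number. The files list 4 such isoforms of 43936 transcripts in all. MERGE.11573.1, MERGE.11573.2 and MERGE.11573.5 are listed for all 15 libraries, and all 3 passed the filter on low values, which asks for 1 or more in at least 5 libraries. MERGE.11573.3 is listed for the neferine-treated rats alone. The locus was picked because its isoforms differed between untreated hypertensive rats and the other 2 groups in these same values, so levels and shares are given as a description, without tests. The files do not pair assembled loci with a gene, a position or a sequence, so neither the gene nor what its isoforms encode is named here.

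The series holds 5 libraries from each of 3 groups, which differ in strain or treatment. WKY are rats of the normotensive Wistar Kyoto strain given double distilled water. SHR are spontaneously hypertensive rats given the same water, and SHR+Nef are spontaneously hypertensive rats given neferine at 10 mg/kg per day, each for 10 weeks. No age or sex is stated, and the labels do not say outright that each library is a separate animal. RNA was depleted of ribosomal RNA before sequencing. Each file gives abundances of transcripts in an unnamed unit, and read depth is unknown. The summed abundance ran from 496460 to 746274 per library, the highest being SHR replicate 4. That library also had 8259 of the 39097 transcripts common to all files at 0, against 2560 to 3739 in the others. Transcripts carry identifiers without gene names, and these were not matched to genes, so the tissue was not checked against aortic markers.

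One gene can give several RNAs through alternative start sites, splicing or ends, and these isoforms can differ in the protein they encode or in how stable and how well translated they are. In the arterial wall, alternative splicing is known to separate contractile from proliferating smooth muscle cells, as in several proteins of the contractile apparatus. Spontaneously hypertensive and Wistar Kyoto rats descend from a common stock, and the first is widely used as a model of high blood pressure with the second as its control. Neferine is a bisbenzylisoquinoline alkaloid of the lotus seed. Isoform levels are estimates, since reads that fit several isoforms have to be divided among them.

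In untreated SHR the locus was made up of MERGE.11573.1 and MERGE.11573.5, with MERGE.11573.2 at or near 0. In WKY and in SHR+Nef it was made up mainly of MERGE.11573.1 and MERGE.11573.2, and MERGE.11573.5 was low in all of those libraries but WKY replicate 1. MERGE.11573.2 took 35.6% ± 21.3 of the sum of the 3 isoforms in WKY, 1.52% ± 3.28 in untreated SHR and 36.0% ± 17.0 under neferine (SD, n = 5 each). MERGE.11573.5 took 10.0% ± 17.3, 54.8% ± 23.4 and 2.33% ± 5.15 in the same order (SD, n = 5 each). The SDs are large beside most of these means. In bulk tissue such as this, fewer cells of a type and less RNA per cell cannot be told apart.

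MERGE.11573.2 stood at 0.572, 1.41, 3.70, 1.73 and 1.87 in WKY replicates 1 to 5. In SHR it was listed at 0 in replicates 1, 3 and 4, at 0.285 in replicate 2 and at 0.00793 in replicate 5. In SHR+Nef replicates 1, 2, 4, 5 and 6 it stood at 0.956, 0.809, 2.74, 1.29 and 2.70. Every SHR library thus lay below every WKY and every SHR+Nef library, while WKY and SHR+Nef overlapped over most of their range. The difference on the log2(value + 1) scale was -1.35 for SHR minus WKY and 1.29 for SHR+Nef minus SHR, each with a standard error of 0.28 (limma). For SHR+Nef minus WKY it was -0.06 with the same standard error. This scale understates changes of low transcripts.

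The listing of transcripts bears on MERGE.11573.2. Of the transcripts listed for all 15 libraries, 2298 have an SHR mean under 0.5, and 0 of these have a WKY or SHR+Nef mean under 0.5. An isoform with the SHR mean of MERGE.11573.2, 0.0587, was therefore in all files only because it was higher in both other groups, and that direction carries no information. Of the 651 such transcripts that passed the filter, 5 had every SHR value below every value of both other groups, as MERGE.11573.2 did. MERGE.11573.5 and MERGE.11573.1, with SHR means of 2.30 and 1.70, are listed whatever their level in the other groups. The filter on low values selects as well. MERGE.11573.5 reached 1 in 6 libraries, the 5 of SHR and WKY replicate 1, so it passed only through the group where it is high. MERGE.11573.2 reached 1 in 7, all of them WKY or SHR+Nef libraries. MERGE.11573.1 reached 1 in 14.

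MERGE.11573.5 was at 2.02, 1.79, 1.68, 4.57 and 1.45 in SHR replicates 1 to 5. In SHR+Nef it was at 0.364 in replicate 1, at 0.00577 in replicate 2 and listed at 0 in replicates 4, 5 and 6. All 5 SHR libraries lay above all 5 SHR+Nef libraries, with a log2 difference of -1.56 for SHR+Nef minus SHR (standard error 0.29, limma). In WKY replicates 2 to 5 it was at 0.0328, 0.119, 0.0454 and 0.319, but WKY replicate 1 reached 1.74. That 1 library lay within the SHR range, so SHR and WKY overlapped, and the log2 difference of SHR minus WKY was 1.23 (standard error 0.29, limma). Without WKY replicate 1 the highest WKY value was 0.319 and the lowest SHR value 1.45, and 3.57% of all transcripts tested did not overlap when that library was left out. For SHR+Nef minus WKY the log2 difference was -0.33 (standard error 0.29, limma), and the values overlapped, through SHR+Nef replicate 1. Without that library every SHR+Nef value, at most 0.00577, lay below the lowest WKY value, 0.0328, and 5.58% of all transcripts tested did not overlap. Without WKY replicate 1 this last log2 difference was -0.08.

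MERGE.11573.1 was the isoform that all groups shared. It stood at 1.96, 3.94, 1.42, 3.15 and 3.52 in WKY replicates 1 to 5. In SHR it stood at 2.37, 1.78, 1.96 and 2.24 in replicates 1, 2, 3 and 5 and at 0.176 in replicate 4. Under neferine replicates 1, 2, 4, 5 and 6 had 1.84, 3.61, 3.16, 3.85 and 1.79. The 3 groups overlapped in each comparison. The log2 difference was -0.53 for SHR minus WKY, 0.56 for SHR+Nef minus SHR and 0.03 for SHR+Nef minus WKY, each with a standard error of 0.31 (limma). Without SHR replicate 4 the first was -0.25 and the second 0.28. The last took either sign as single libraries were left out. MERGE.11573.1 was the highest of the 3 isoforms in 4 of 5 WKY, 3 of 5 SHR and 4 of 5 SHR+Nef libraries, and its share was 54.4% ± 18.2, 43.7% ± 22.9 and 61.6% ± 16.8 in that order of groups (SD, n = 5 each).

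**Figure D1:**
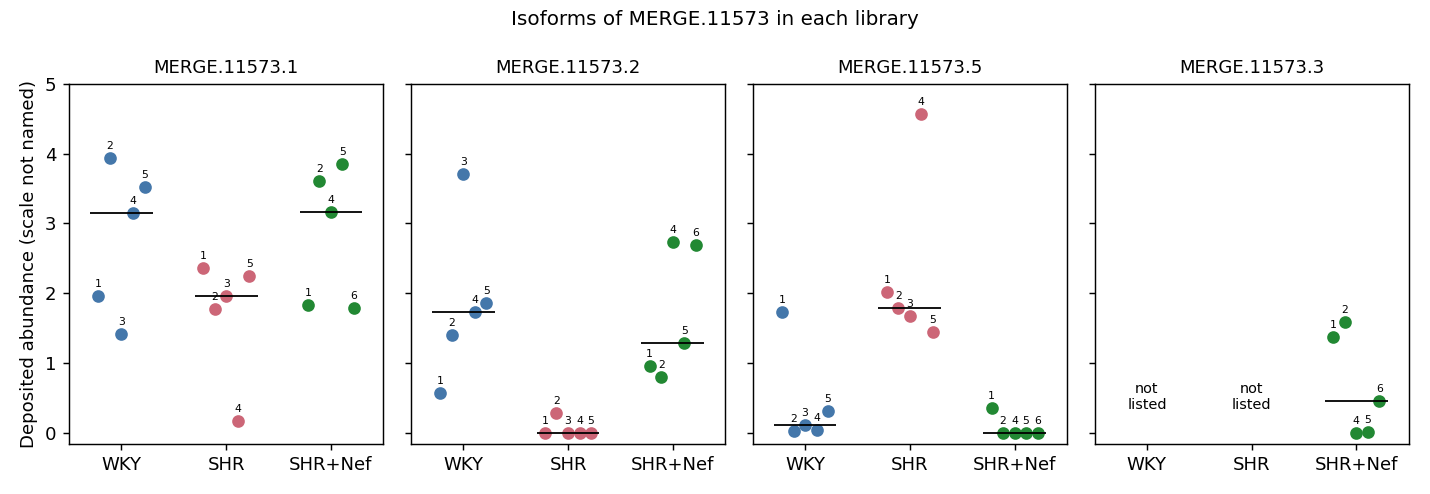
Deposited abundance (scale not named) of the 4 isoforms of MERGE.11573 by group. Each point is 1 library with its replicate number, and the horizontal line is the median of the 5. MERGE.11573.2 is at 0.285 or less in all SHR libraries, MERGE.11573.5 is at 1.45 or more in all SHR libraries and in WKY replicate 1, and MERGE.11573.3 is listed for SHR+Nef alone.

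Counted over the members, 1 of 3 levels did not overlap between SHR and WKY, where 2.64% of the 29095 transcripts tested did not. Between SHR+Nef and SHR it was 2 of 3, against 1.08%, and between SHR+Nef and WKY 0 of 3, against 4.2%. The members were chosen on these contrasts, so nothing follows from these counts about chance. The 3 isoforms are of low to middling abundance. Their means over the 15 libraries were 2.45 for MERGE.11573.1, 1.20 for MERGE.11573.2 and 0.943 for MERGE.11573.5, and the median of all transcripts tested was 2.75. MERGE.11573.5 lay above 8.25% of them.

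Shares do not depend on the scale of a library and show the same arrangement library by library. MERGE.11573.2 made up 13.4% of the sum in WKY replicate 1, 26.1% to 35.2% in WKY replicates 2, 4 and 5, and 70.7% in WKY replicate 3. In SHR its share was 7.40% in replicate 2 and at most 0.215% in the other 4. Under neferine it ran from 18.3% in replicate 2 to 60.2% in replicate 6, with a median of 30.3%. Its mean share was 34.1 percentage points lower in SHR than in WKY, the signed difference being -34.1 with a standard error of 9.65. SHR+Nef minus SHR was 34.5 points with a standard error of 7.76, and SHR+Nef minus WKY was 0.415 points with a standard error of 12.2. That standard error leaves room for a sizeable difference in either direction between the last pair.

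The share of MERGE.11573.5 was tightly grouped in 4 SHR libraries, at 46.1% in replicate 1, 46.5% in replicate 2, 46.1% in replicate 3 and 39.1% in replicate 5. SHR replicate 4 had 96.3%, with MERGE.11573.1 at 3.72%. In WKY it was 40.7% in replicate 1 and 0.609% to 5.59% in the others, and under neferine it was 11.5% in replicate 1 and at most 0.130% in the other 4. Its mean share differed by 44.8 points for SHR minus WKY (standard error 13.0), by -52.5 points for SHR+Nef minus SHR (standard error 10.7) and by -7.69 points for SHR+Nef minus WKY (standard error 8.07). WKY replicate 1 at 40.7% lay above only SHR replicate 5 at 39.1%, and without either of these libraries the SHR and WKY shares did not overlap. The share of all isoforms without overlap was 2.81% when WKY replicate 1 was left out and 3.24% when SHR replicate 5 was. Without SHR replicate 4, the library with many transcripts at 0, the 2 contrasts that hold SHR were 34.4 and -42.1 points.

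**Figure D2:**
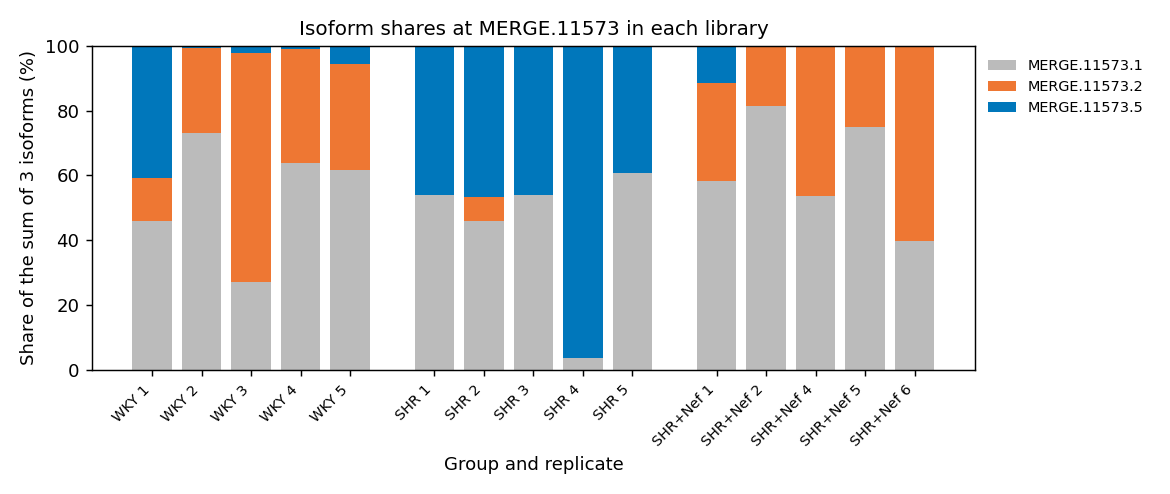
Share of each isoform in the sum of MERGE.11573.1, MERGE.11573.2 and MERGE.11573.5, in percent, 1 bar per library, in the order WKY, SHR, SHR+Nef. MERGE.11573.5 fills 39.1% to 96.3% of the SHR bars and 40.7% of the bar of WKY replicate 1, and at most 11.5% of every other bar.

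The arrangement can be read within each library, without any scaling, from which of MERGE.11573.2 and MERGE.11573.5 was higher. MERGE.11573.2 was the higher in 4 of 5 WKY libraries, 0 of 5 SHR libraries and 5 of 5 SHR+Nef libraries, WKY replicate 1 being the exception. The 2 isoforms were seldom present together. Both reached 0.5 in 1 of the 15 libraries, again WKY replicate 1, with MERGE.11573.2 at 0.572 and MERGE.11573.5 at 1.74. MERGE.11573.2 reached 0.5 in all 10 libraries of WKY and SHR+Nef, and MERGE.11573.5 in all 5 of SHR. The locus was picked for this arrangement, and the listing and the filter favour it, so the count is a description. How often other pairs of isoforms are apart in this way was not counted.

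**Figure D3:**
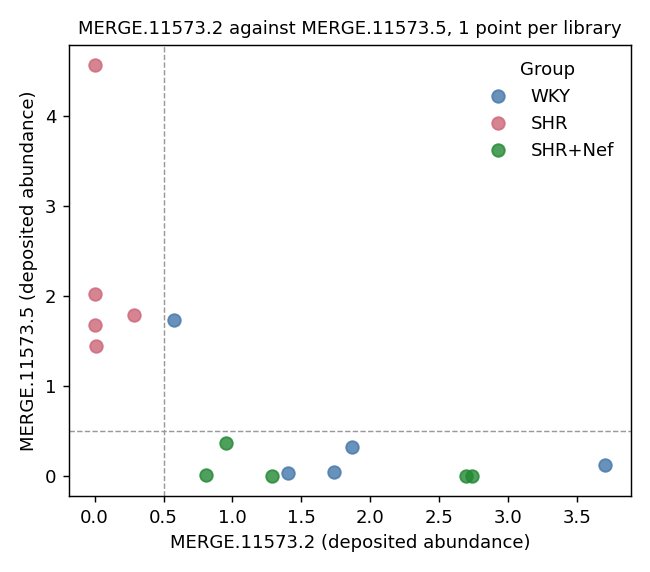
Deposited abundance of MERGE.11573.2 (horizontal axis) against MERGE.11573.5 (vertical axis), 1 point per library, coloured by group, with dashed lines at 0.5. All 5 SHR points lie left of the vertical line and above the horizontal one, all SHR+Nef and 4 WKY points lie right of the first and below the second, and WKY replicate 1 lies beyond both.

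WKY replicate 1 was placed between the strains on other transcripts, to see whether its label held. On 486 transcripts outside this locus on which the other 4 WKY and the 5 SHR libraries did not overlap and differed by at least 1 log2 unit, its median position was 0.905, where 0 is the SHR mean and 1 the mean of the other WKY libraries. The other 4 WKY libraries, placed in the same way, lay at 0.892 to 1. On those transcripts it lay within the range of the other WKY libraries, near its lower end, unlike at MERGE.11573.5. A mixture with another sample was not tested.

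The summed abundance of the 3 isoforms was 4.27 in WKY replicate 1 and 4.93 to 5.71 in the other WKY libraries, 3.64 to 4.75 in untreated SHR and 3.16 to 5.90 under neferine. The means were 5.10 ± 0.545 in WKY, 4.07 ± 0.482 in untreated SHR and 4.62 ± 1.01 under neferine (SD, n = 5 each), and SHR+Nef overlapped both other groups. With MERGE.11573.3 added, the SHR+Nef mean was 5.30 ± 0.636 (SD, n = 5). The WKY mean of 5.10 is of 3 isoforms, since MERGE.11573.3 has no listed value in WKY. The order of WKY and SHR+Nef with all isoforms counted is therefore unknown. On the log2(sum + 1) scale SHR minus WKY was -0.27, SHR+Nef minus SHR 0.13 and SHR+Nef minus WKY -0.13, each with a standard error of 0.15 (limma). WKY replicate 1 alone made the SHR and WKY sums overlap, since without it the lowest WKY sum, 4.93, lay above the highest SHR sum, 4.75; 3.41% of locus sums did not overlap when that library was left out. With all libraries, over the 3641 loci with 2 or more tested isoforms and a sum above 0 in every library, 2.28% of sums did not overlap between SHR and WKY, 1.02% between SHR+Nef and SHR and 4.45% between SHR+Nef and WKY. The sum of MERGE.11573 overlapped in all 3 comparisons.

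MERGE.11573.3 enters none of the sums of 3 isoforms. In SHR+Nef replicates 1 and 2 it was at 1.37 and 1.59, in replicate 6 at 0.455, in replicate 5 at 0.0120 and in replicate 4 listed at 0. It held 30.3% of the sum of 4 isoforms in replicate 1 and 26.4% in replicate 2. Replicates 1 and 2 were also those with the lowest MERGE.11573.2, at 0.956 and 0.809. MERGE.11573.2 and MERGE.11573.3 added up stood at 2.33, 2.39, 2.74, 1.30 and 3.15 in replicates 1, 2, 4, 5 and 6. Replicate 5 had little MERGE.11573.3 and the lowest of these sums. The coefficient of variation was 28.9%, against 55.8% for MERGE.11573.2 alone. A lower value is not particular to this pair, since the sum of MERGE.11573.1, MERGE.11573.2 and MERGE.11573.5 had 21.9% in SHR+Nef. Whether MERGE.11573.2 and MERGE.11573.3 vary against each other was not tested. With MERGE.11573.3 in the sum, the SHR+Nef mean shares were 53.0% for MERGE.11573.1, 32.1% for MERGE.11573.2, 13.2% for MERGE.11573.3 and 1.63% for MERGE.11573.5.

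MERGE.11573.3 is not listed for WKY and SHR, so its values there are unknown. All 2065 transcripts listed for SHR+Nef alone have an SHR+Nef mean of at least 0.5, and every transcript in the WKY and SHR files has a mean of at least 0.5 in one of those groups. The mean of MERGE.11573.3 in SHR+Nef was 0.684. If that limit alone set the listing, its WKY and SHR means were both under 0.5. A higher mean in SHR+Nef would then follow from the listing and carry no information. The shares of the 3 common isoforms overlap between WKY and SHR+Nef, and whether MERGE.11573.3 differs between them could not be tested.

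Set beside all loci, the shifts of MERGE.11573.5 and MERGE.11573.2 lie in the outer part of the distribution. The locus was picked for its difference between SHR and the other groups, so this place follows from the choice. It says nothing about chance. Among 10909 isoforms of the 3641 loci, 1.39% had a share difference of at least 44.8 points in size for SHR minus WKY, and 0.495% one of at least 52.5 points for SHR+Nef minus SHR. For MERGE.11573.2 the same counts were 3.75% and 2.71%. For MERGE.11573.1 they were 34.7% and 15.6%, which is among the ordinary spread. Between SHR+Nef and WKY the 3 isoforms differed by 0.415 to 7.69 points in size, where the median over all isoforms was 5.96.

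By overlap of shares, 1 of the 3 isoforms, MERGE.11573.2, did not overlap between SHR and WKY, against 2.01% of the 10909. Between SHR+Nef and SHR, MERGE.11573.2 and MERGE.11573.5 did not overlap, against 0.816% of all isoforms, and between SHR+Nef and WKY none of the 3 was without overlap, against 2.4%. SHR shares lay outside both other groups on the same side in 8 of the 10909 (0.0733%), MERGE.11573.2 being one of these. Among 15679 pairs of isoforms of 1 locus, the order of the pair was opposite in all SHR and all SHR+Nef libraries in 19 (0.121%), at 15 loci. In 7 of the 19 (0.0446% of all pairs), at least 4 of 5 WKY libraries had the SHR+Nef order, as at MERGE.11573. The comparisons share the SHR libraries, so a departure of SHR by itself enters both. The locus was picked for this arrangement, and the counts say only how many others show it.

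**Figure D4:**
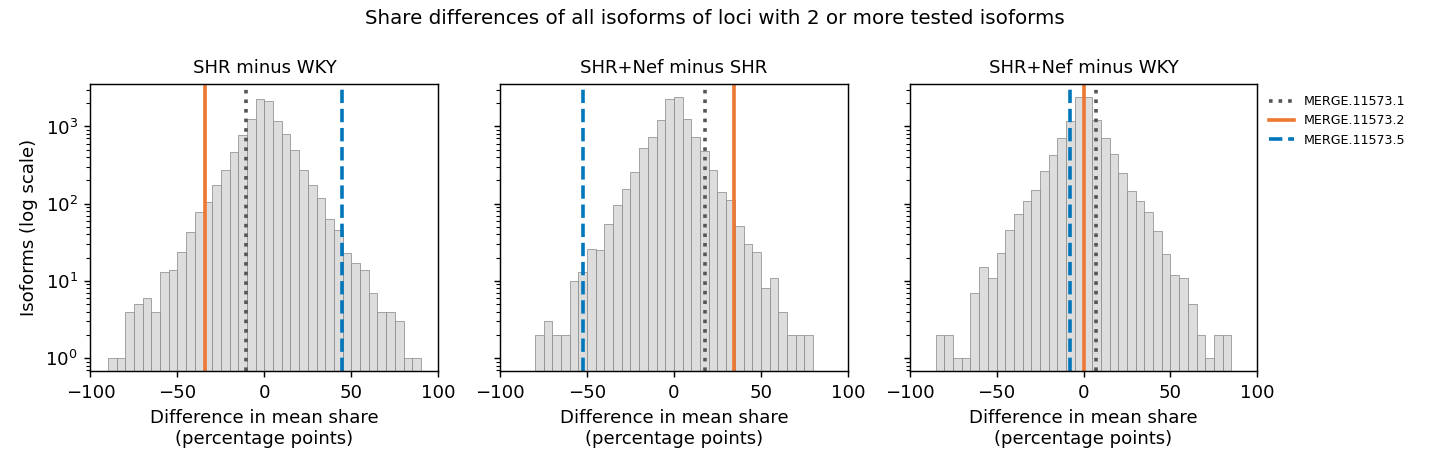
Difference in mean share, in percentage points, for 10909 isoforms of loci with 2 or more tested isoforms, in bins of 5 points with the number of isoforms on a log axis, and the 3 isoforms of MERGE.11573 as vertical lines. MERGE.11573.5 is at 44.8 and MERGE.11573.2 at -34.1 in SHR minus WKY, they change sides in SHR+Nef minus SHR, and all 3 lie within 7.69 points of 0 in SHR+Nef minus WKY.

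Transcripts of other loci that followed MERGE.11573.5 and MERGE.11573.2 most closely over the 15 libraries were looked up by Pearson's correlation of log2(value + 1), which rests largely on the contrast of the groups and is given as a description. MERGE.3255.5 was closest to MERGE.11573.5, at r = 0.858, with 1.76 to 6.86 in SHR, 0 to 3.74 in WKY and 0 to 1.69 in SHR+Nef. ENSRNOT00000013031 was next, at r = 0.854, with 2.21 to 4.56 in SHR, 1.39 to 3.28 in WKY and 1.51 to 1.92 in SHR+Nef. Both were high in SHR, though their WKY values reached into the SHR range.

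Closest to MERGE.11573.2 was MERGE.22622.4, at r = 0.828, with 3.19 to 22.5 in WKY, 0.00670 to 2.82 in untreated SHR and 3.05 to 17.5 under neferine. MERGE.2094.2 followed at r = 0.816, with 0.172 to 2.11 in WKY, 0 to 0.252 in untreated SHR and 0.254 to 2.99 under neferine. Of all tested transcripts outside the locus, 9 reached r = 0.8 with MERGE.11573.5 and 4 with MERGE.11573.2. With an SHR mean of 0.0503, MERGE.2094.2 is subject to the same listing condition as MERGE.11573.2.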

How the data were processed

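Each of the 15 deposited tables gives 1 signal value per transcript, a fractional abundance made by the authors. Its unit, FPKM or TPM, could not be settled. In both cases values and shares are per transcript length. The submitters' processing notes name limma and mm10, a mouse build. Tools for transcript assembly and quantification were not given in the sources used here. Sample labels say rat where the design text says mice. The labels were followed, and Ensembl identifiers in the data, such as ENSRNOT00000013031, are also those of rat. Depth is unknown, and an exact 0 can be a failed estimate.

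Groups and replicate numbers came from the sample titles. The 29095 transcripts listed for all libraries and at 1 or more in at least 5 of them were fitted on log2(value + 1) in limma 3.58.1 (R 4.3.3; 3 groups in 1 model, trend and robust options), as were 10401 locus sums. The fit was tested on simulated data. Standard errors of log2 differences are moderated; those of shares come from both groups' SDs. If libraries shared an animal, spreads would be technical. The share analysis left out 237 loci with a sum of 0 in a library. The members and lists were chosen with earlier results of these data known. Lookalikes were the 2 best correlated transcripts for the isoform with the largest SHR minus WKY share difference and for the largest of opposite sign. Alternatives were a pseudocount of 0.1, median scaling, no filter, a replicate block, other definitions of the share, and leaving out each library. Figures used matplotlib 3.10.9 in Python 3.11.15.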

Additional observations from a re-analysis of the deposited data

Results flagged for a closer look

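Levels, shares and sums of the locus were screened for libraries standing away from the other 4 of a group, in 22 sets of 5 values, and 10 stood out, where chance picks out about 5% of sets. That rate is for normally distributed values. It does not hold for MERGE.11573.2 in SHR and MERGE.11573.5 in SHR+Nef, each with 3 values at 0, where 1 higher value is easily picked out. The levels and shares of an isoform come from the same library and are not independent. SHR replicate 4 was high in MERGE.11573.5 (4.57, a share of 96.3%) and low in MERGE.11573.1 (0.176, a share of 3.72%). WKY replicate 1 was high in MERGE.11573.5 (1.74, a share of 40.7%). SHR+Nef replicate 1 was high in the same isoform (0.364, a share of 11.5%), where the other SHR+Nef libraries were at or near 0. SHR replicate 2 was high in MERGE.11573.2 (0.285, a share of 7.40%), where the other SHR libraries were at or near 0.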

How the results depend on the processing

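The 21 differences (3 levels, 3 shares and the sum in 3 comparisons) were recomputed in 300 alternative values. Of these, 294 moved by less than 1 replicate SD, a lenient limit where that SD is large. For the share of MERGE.11573.1 in SHR minus WKY it was 20.7 points, so a move from -10.7 to -0.718 stayed within it. Reversals were counted only for groups that do not overlap, and there were 0. Leaving out a library, taking medians or changing the pseudocount cannot reverse such a difference. Another sign was seen in 17, all in SHR+Nef minus WKY. With a pseudocount of 0.1, which widens differences of low values by construction, the log2 differences of MERGE.11573.2 were -3.67 for SHR minus WKY and 3.59 for SHR+Nef minus SHR, and those of MERGE.11573.5 were 2.79 for SHR minus WKY, -4.00 for SHR+Nef minus SHR and -1.21 for SHR+Nef minus WKY. Set on the log2 scale against the other isoforms, MERGE.11573.2 differed by 1.79 for SHR+Nef minus SHR, more than its share did in units of its SD; the cause was not tested. With 1 library left out, the share difference of MERGE.11573.2 ran from -39.7 to -25.3 points for SHR minus WKY and from 28.5 to 39.0 for SHR+Nef minus SHR, and that of MERGE.11573.5 from 34.4 to 52.5 and from -56.4 to -42.1. The share difference of MERGE.11573.1 ran from -17.5 to -0.718 points for SHR minus WKY, the last without SHR replicate 4. Counting MERGE.11573.3 in the SHR+Nef sum, added after the data were seen, made SHR+Nef minus WKY -3.50 points for MERGE.11573.2. The WKY share was still of 3 isoforms, so this sets unlike sums against each other. Taking all isoforms listed for WKY and SHR changed nothing, since these are the same 3. Same-numbered libraries did not deviate together over all tested transcripts (median correlation 0.00664 for SHR and WKY, -0.0340 for SHR+Nef and SHR). A pairing with little effect on these few correlations would not have been seen, so whether the numbers pair animals is unknown. For shares, the replicate block was the mean difference of same-numbered libraries, which leaves out SHR replicate 3 and SHR+Nef replicate 6. With it the share of MERGE.11573.5 differed by -54.1 points and that of MERGE.11573.2 by 28.1 for SHR+Nef minus SHR. Leaving out SHR+Nef replicate 6 alone already gave 28.5 points for MERGE.11573.2. Unknown read depth limits what the low values can show.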
